A study of Homo sapiens with 12 samples.

Results

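The comparison set the Raf inhibitor SB590885 directly against the MEK inhibitor PD325901 in INA-6 cells, a line of human myeloma that is grown with interleukin-6. It used 8 of the series' 12 arrays, 4 from cells labelled B-Raf-inhibited (SB590885) and 4 from cells labelled MEK1-inhibited (PD325901), paired by their replicate numbers 1 to 4. The other 4 arrays, from cells given the solvent DMSO, served as the reference point for each treatment. Cells of all 3 groups grew in RPMI1640 with 10% fetal calf serum, antibiotics and interleukin-6 at 2 ng/ml. Each treatment used 300000 cells, and the Affymetrix HG-U133 Plus 2.0 arrays were hybridised with material amplified from 100 ng of RNA. The sources used here give neither doses nor treatment times, so every difference below is a difference between the treatments as applied. Arrays 3 and 4 of each group carry an R in a second label, which the sources used here do not explain. INA-6 is 1 cell line, and although the series design calls the arrays biological replicates, nothing names separate cultures, so p-values measure the spread between these arrays.

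RAF kinases phosphorylate MEK, MEK phosphorylates ERK, and ERK induces genes that include its own brakes, the dual-specificity phosphatases (DUSPs) and the Sprouty-related SPRED proteins. Inhibitors that act at different levels of this cascade can differ in how far they lower ERK output and in which other proteins they bind. Myeloma cells are malignant plasma cells, which make and fold large amounts of secretory protein and rely on the endoplasmic reticulum (ER) and its unfolded protein response.

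Values are log2 signals after robust multi-array averaging (RMA), and the probe set with the highest mean stands for each gene. Across the arrays the plasma cell markers TNFRSF17 (12.5 to 13.6), IRF4 (11.8 to 12.1) and XBP1 (11.9 to 13.2) were high. Of 17 defining markers of other cell types, 12 read 6.38 to 7.15, around the array medians of 6.88 to 6.97, among them MS4A1 of B cells, CD2 of T cells and CD14 of monocytes. The other 5 lay above the medians on every array: PAX5 (7.20 to 7.88) and CD22 (7.08 to 7.30) of B cells, CD8A (7.08 to 7.67) of T cells, the collagen gene COL1A1 (7.92 to 8.53) and the globin gene HBB (8.59 to 9.36). Of the variance, 46.7% lay along a first principal component that split R-marked from unmarked arrays in every group. A second component, with 20.4%, set the SB590885 arrays (-19.0 to -10.1) apart from both the PD325901 arrays (4.51 to 13.4) and the DMSO arrays (4.8 to 13.7). Among all genes, deviations from the group mean of same-numbered SB590885 and PD325901 arrays correlated at 0.601 to 0.658. Array 2 stood apart for interferon response genes after DMSO (median level 10.9) and PD325901 (10.8), but not after SB590885 (all other arrays 7.35 to 8.32).

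Of 19775 genes tested, 3582 (18.1%) differed between SB590885 and PD325901 at an adjusted p under 0.05, from limma with the replicate number as a block and Benjamini-Hochberg adjustment over all genes. Higher with SB590885 were 2449 genes (12.4%), and higher with PD325901 were 1133 (5.73%). Most differences were small: the median absolute difference of the called genes was 0.26 on the log2 scale, and only 36 and 12 genes differed by at least 1 in the respective directions. In 3336 of the 3582 genes all 4 pairs pointed the same way, and in 1191 the 4 SB590885 arrays did not overlap the 4 PD325901 arrays, which held for 7.18% of all genes (4.68% with SB590885 on top and 2.5% with it below). Both counts within the called genes come from the arrays that gave the calls. Without the replicate block the count was 558 (2.82%; 389 and 169, or 1.97% and 0.855%), all of them among the 3582, and with the R mark alone as the block it was 3187. Quantile normalisation gave 2048 genes higher and 1725 lower with SB590885, a more even split. Of the named genes discussed below, those that lost their call between the treatments without the block were SAMD9L, FAM107B, PSAT1, CEBPB, SOS2, DUSP4, ZFP36L2, BTG1, RICTOR, IL6R, NFKBIA, PARP9, IFIT2, CTH, CHORDC1, HSPB1, CACYBP, CRELD2, HSP90B1, POLR1B, RRM2, PCNA, CCNE1, PMAIP1, BCL2L11, CREB3L2, SQSTM1, ITGA6, CD44, DKK1, CCL2 and CD8A.

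Against DMSO, SB590885 changed 3742 genes (18.9%, 1797 or 9.09% up and 1945 or 9.84% down; 2172 up and 1828 down after quantile normalisation, 1454 and 2149 after centring) and PD325901 changed 1610 (8.14%, 387 or 1.96% up and 1223 or 6.18% down; 802 up and 695 down after quantile normalisation). Both comparisons share the DMSO arrays, and these shares of all genes are the background for the list counts against DMSO below. Placed by these calls, 1843 of the 3582 genes that parted the treatments (51.5%) had changed with SB590885 alone and 512 (14.3%) with PD325901 alone. A further 185 (5.16%) had changed in 1 direction with both, 130 (3.63%) in opposite directions, and 912 (25.5%) had passed against DMSO with neither.

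**Figure D1:**
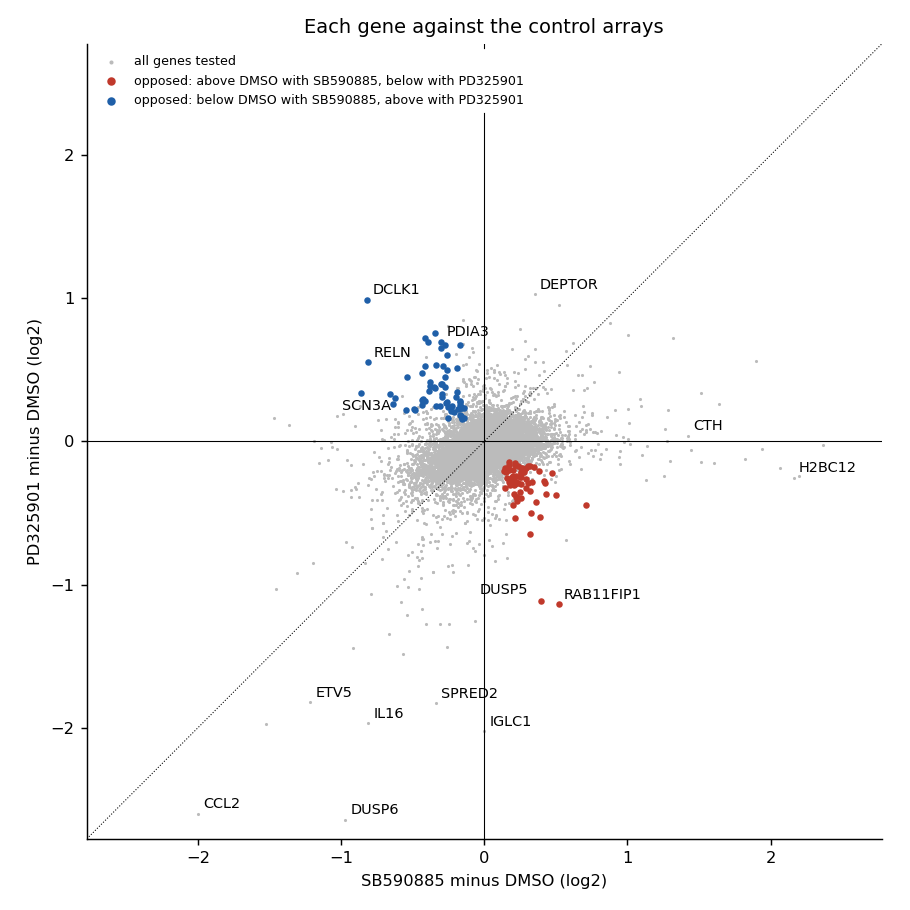
Each point is a gene, with SB590885 minus DMSO on the horizontal axis and PD325901 minus DMSO on the vertical axis (log2). The dotted line marks equal change, so distance from it is the difference between the treatments, and the 66 red and 64 blue genes lie on opposite sides of 0 for the 2 compounds. Both axes share the DMSO arrays.

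DUSP6, SPRED2, SPRED1 and ETV5, which ERK induces or which restrain it, fell with both treatments, and further with PD325901 than with SB590885. DUSP6, the phosphatase that inactivates ERK in the cytoplasm, read 9.79, 9.89, 9.48 and 9.31 on the DMSO arrays 1 to 4, 8.52, 8.79, 8.79 and 8.47 after SB590885 and 7.07, 7.21, 6.63 and 6.98 after PD325901. The 3 groups did not overlap, with SB590885 between the other two. DUSP6 fell by 0.97 with SB590885 and by 2.64 with PD325901, so it was 1.67 ± 0.10 (SE) higher with SB590885 (limma adjusted p = 8.80e-08). SPRED2, which blocks activation of RAF by RAS, read 8.84, 8.93, 8.53 and 8.72 with DMSO, 8.58, 8.44, 8.38 and 8.27 with SB590885 and 6.83, 6.93, 6.99 and 6.95 with PD325901. All PD325901 arrays lay well below both other groups, and the treatments differed by 1.49 ± 0.07 (SE; limma adjusted p = 3.25e-08), on 1 of its 3 probe sets. Its relative SPRED1 was 0.92 ± 0.05 (SE) higher with SB590885 and fell with both, by 0.56 and 1.49.

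The ERK-induced transcription factor ETV5 followed the same order, 8.58 to 8.87 with DMSO, 7.43 to 7.58 with SB590885 and 6.70 to 6.99 with PD325901, a difference between the treatments of 0.61 ± 0.07 (SE). With PD325901, DUSP6, SPRED2 and ETV5 read near the median of all probe sets, 6.92, the level around which most markers of other cell types lay, so their differences can understate the change. DUSP4, a nuclear phosphatase of ERK, read 9.38, 9.37, 10.26 and 9.60 with SB590885 and 9.15, 9.20, 9.09 and 9.07 with PD325901. SB590885 array 3 was the highest treated array, and the difference of 0.53 ± 0.13 (SE) lost its call without PD325901 array 3, without pair 4, without the block and with a trend in the variances. Of the 10 ERK pathway output genes, DUSP6, ETV5 and DUSP4 were higher with SB590885 and none was lower. The other 7 (CCND1, EPHA2, EPHA4, ETV4, PHLDA1, SPRY2 and SPRY4) differed by -0.07 to 0.08 and were called in neither comparison with DMSO, on the probe set used. Over all probe sets, 1 of 5 for EPHA4 and 1 of 6 for PHLDA1 were called between the treatments. Among the 18 ERK feedback regulators, which include these DUSP genes, 8 were higher (44.4%) and 2 lower (11.1%) with SB590885, against 12.4% and 5.73% of all genes. Against DMSO 8 had fallen with each treatment, and SB590885 raised 4 (DUSP1, DUSP5, DUSP8 and DUSP10) where PD325901 raised 0. The DUSP genes on this list are not all specific for ERK, so these rises are not a count of ERK brakes.

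The kinases themselves differed little at the RNA level. ARAF (0.08), MAP2K1 (0.12) and MAP2K2 (0.14), which encode A-Raf, MEK1 and MEK2, and MAPK3 (0.02), which encodes ERK1, were not called (lowest limma adjusted p = 0.104). Of 19 measured components of the RAS, RAF, MEK and ERK chain, 3 were higher (15.8%) and 1 lower (5.26%) with SB590885. These shares are near the 12.4% and 5.73% of all genes. The largest of these was SOS2, a factor that loads RAS with GTP, which was 0.70 ± 0.07 (SE) higher on 1 of its 6 probe sets.

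**Figure D2:**
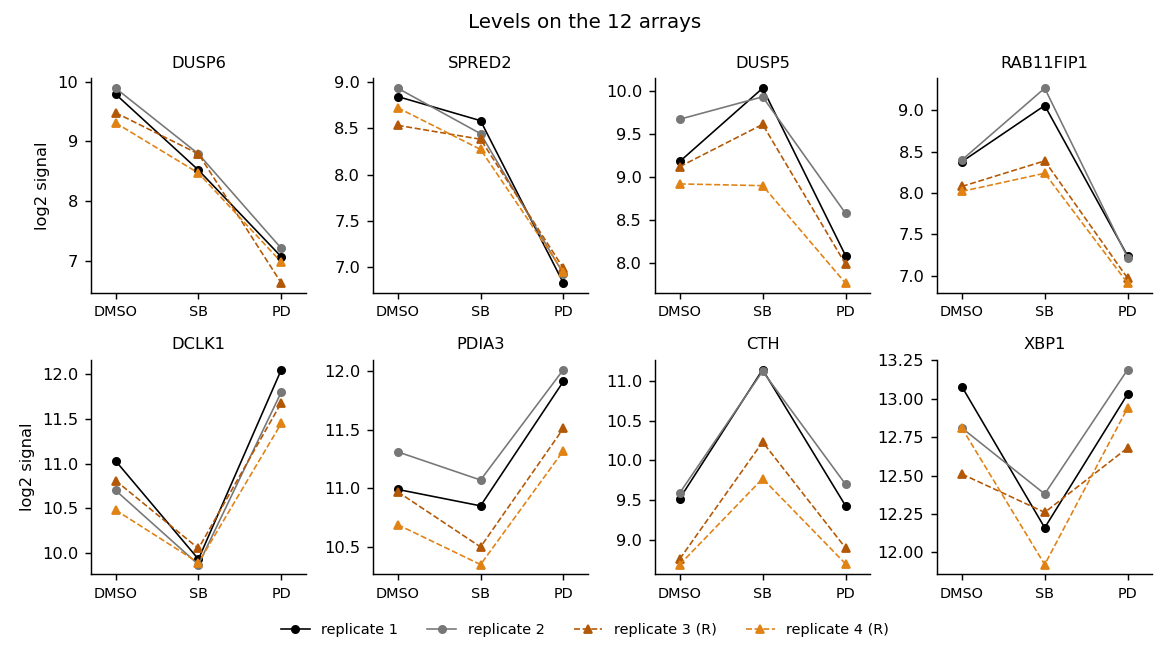
Log2 signal of 8 genes on the 12 arrays, with 1 line per replicate number running from DMSO to SB590885 (SB) to PD325901 (PD); triangles and dashed lines mark R-marked arrays, and each panel has its own axis. DUSP6 and SPRED2 step down to their lowest level with PD325901, DUSP5 and RAB11FIP1 are highest with SB590885 and lowest with PD325901 (DUSP5 pair 4 excepted, where SB590885 is at the DMSO level), DCLK1 and PDIA3 do the reverse, CTH is high with SB590885 alone, and XBP1 is lowest with SB590885.

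Genes moved in opposite directions from the control arrays numbered 130 (0.657% of all genes), 66 (0.334%) above DMSO with SB590885 and below it with PD325901 and 64 (0.324%) the other way. Each was also called between the treatments, which the definition all but ensures, because opposite moves add up in that difference. In 122 of them all 4 pairs moved in the stated direction for both compounds, and in 89 the treated groups did not overlap. These counts come from the same arrays that selected the genes, so they describe the set and do not test it. The moves were modest, with a median size of 0.26 for SB590885 and 0.28 for PD325901, and no gene moved by at least 1 with both. The count depended strongly on the block and on the shared DMSO arrays: it was 2 without the block (DCLK1 and SLC25A20, the latter named after its values were seen), 94 with the R mark as the block, 61 to 66 when any 1 DMSO array was left out, 63 without pair 1, 79 without pair 2, 79 without pair 3 and 73 without pair 4. Within the unmarked arrays it was 70 and within the R-marked arrays 60. Quantile normalisation gave 156, with 54 above and 102 below DMSO after SB590885.

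RAB11FIP1, an effector of RAB11 in recycling of endosomes, had the largest opposed difference with SB590885 on top. It read 8.38, 8.40, 8.08 and 8.02 with DMSO, 9.06, 9.27, 8.39 and 8.24 with SB590885 and 7.24, 7.22, 6.97 and 6.91 with PD325901. Every PD325901 array lay below every DMSO array, whereas SB590885 lay above DMSO within each pair by more in pairs 1 and 2 than in pairs 3 and 4. It rose by 0.52 with SB590885 and fell by 1.14 with PD325901 (difference 1.66 ± 0.09, SE; limma adjusted p = 7.51e-08).

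DUSP5, a nuclear phosphatase of ERK that belongs to the feedback group, was also opposed, unlike DUSP6. Its levels were 9.18, 9.67, 9.12 and 8.92 with DMSO, 10.03, 9.93, 9.61 and 8.90 with SB590885 and 8.09, 8.58, 7.99 and 7.77 with PD325901. Pairs 1, 2 and 3 rose with SB590885 and pair 4 did not, while all 4 PD325901 arrays were below the lowest DMSO array. The fitted changes were a rise of 0.40 (limma adjusted p = 0.0137) and a fall of 1.12 (limma adjusted p = 9.45e-06).

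The other opposed genes named with SB590885 on top were FAM107B, EEIG2, TRIB3, RMI2, CEP68, ARHGAP17, PSAT1 and CEBPB, 0.75 to 1.16 higher with SB590885. Among them, TRIB3, a pseudokinase induced by ATF4, read 10.16, 10.42, 10.28 and 9.81 with SB590885, 9.35, 9.44, 9.11 and 9.08 with PD325901 and 9.69 to 9.90 with DMSO. Its treated groups stood apart, and SB590885 array 4 lay within the DMSO range. Only 1 of its 2 probe sets was called between the treatments. PSAT1, an enzyme of serine synthesis, and CEBPB, a transcription factor, rose by 0.36 and 0.22 and fell by 0.42 and 0.53, but their arrays overlapped between the treatments and they lost the call between them without the block.

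DCLK1, a microtubule-associated kinase, had the largest difference in favour of PD325901 and remained opposed without the block. It read 11.03, 10.70, 10.81 and 10.48 with DMSO, 9.93, 9.87, 10.05 and 9.89 with SB590885 and 12.05, 11.80, 11.68 and 11.45 with PD325901. The 3 groups did not overlap. It fell by 0.82 and rose by 0.99, a difference of -1.81 ± 0.08 (SE) or 3.51-fold (limma adjusted p = 1.23e-08), and all 4 of its probe sets were called the same way.

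RELN, which encodes the secreted glycoprotein reelin, read 8.19, 8.21, 8.61 and 8.56 with SB590885 and 9.61, 9.99, 9.79 and 9.62 with PD325901, on both sides of 9.05 to 9.53 with DMSO. The 3 groups did not overlap. The receptor phosphatase gene PTPRZ1 (difference -1.14), MLKL, the executioner of necroptosis (-1.20), EAF2, a partner of the elongation factor ELL (-1.10), SOHLH2, the general transcription factor gene GTF2A1 (-0.99) and CAV1, the coat protein of caveolae (-0.95), were likewise below DMSO with SB590885 and above it with PD325901. PDK1, the kinase that restrains pyruvate dehydrogenase, fell by 0.39 and rose by 0.69.

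**Figure D3:**
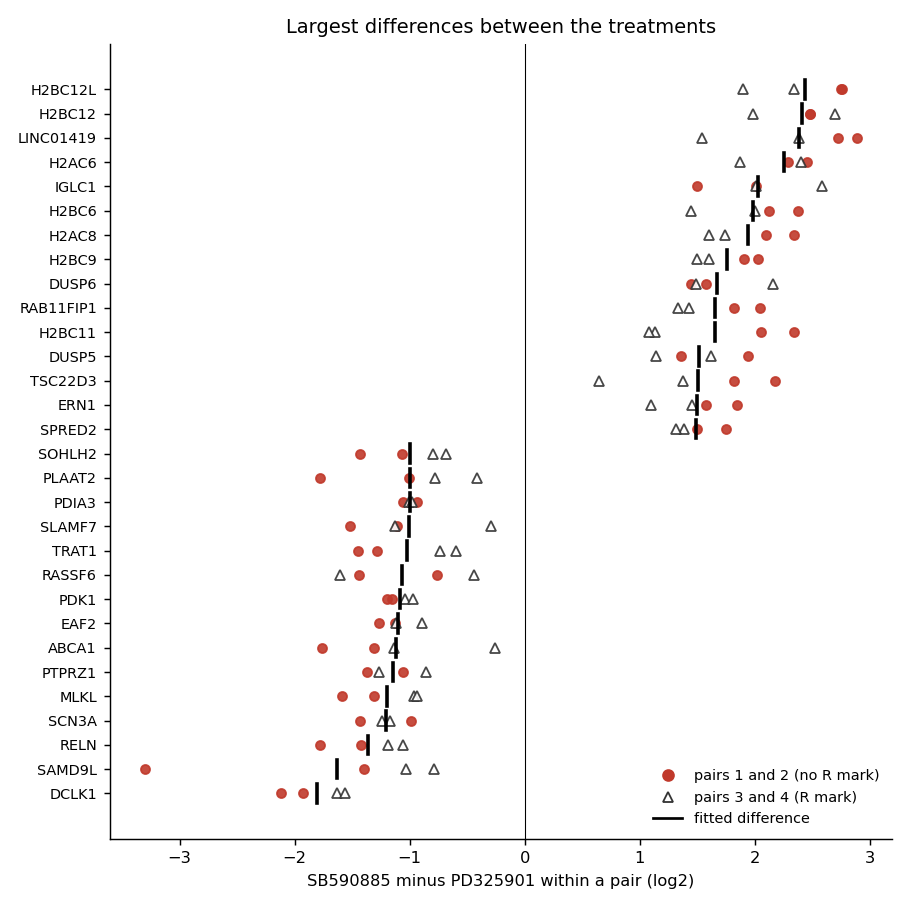
SB590885 minus PD325901 within each of the 4 pairs (log2) for the 15 largest differences in each direction; filled circles are pairs 1 and 2, open triangles the R-marked pairs 3 and 4, and bars the fitted difference. All 4 pairs lie on 1 side of 0 for each of these 30 genes. SAMD9L is the gene whose pair 2 lies farthest from the rest, at -3.30.

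Histone genes led the differences in favour of SB590885. H2BC12, a core histone H2B gene, read 13.48, 13.51, 13.04 and 12.76 with SB590885 against 10.34 to 11.02 with PD325901 and 10.93 to 11.16 with DMSO. The SB590885 arrays stood clear of all others, 2.41 ± 0.10 (SE) above PD325901, or 5.33-fold (limma adjusted p = 1.17e-08). H2AC6, a histone H2A gene, read 11.90, 11.97, 11.34 and 10.95 with SB590885 against 8.94 to 9.61 with PD325901 and 9.20 to 9.67 with DMSO. H2BC6 (1.99), H2AC8 (1.94), H2BC9 (1.76) and H2BC11 (1.65) were of the same kind, as was H2BC12L (2.44), an H2B gene listed outside the clusters. Of 39 histone genes of the replication-dependent clusters, 23 were higher with SB590885 and 0 lower, a share of 59.0% against 12.4% of all genes, with a median difference of 0.31 against 0.00. All 23 rises against DMSO in this list belonged to SB590885, and PD325901 called 0 members in either direction.

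Without the block 16 members were higher and 0 lower. On probe sets made for a single transcript, which measured 30 members, 14 were higher and 0 lower, with a median difference of 0.17. Histone copies are near-identical, so probes can read several of them. Transcripts of these genes usually end without a poly(A) tail, which the 3' labelling used here needs, so the arrays see the tailed fraction. Whether its share or the amount of transcript changed was not tested. Among 10 variant histone genes outside the clusters, whose transcripts usually carry tails, 6 were higher with SB590885 and 0 lower, and without H2BC12L, whose probe set can read cluster copies, 5 of 9 were higher. H1-10, a linker histone gene, read 10.59, 10.91, 10.51 and 10.27 against 9.20, 9.47, 8.96 and 9.15 with PD325901, with no overlap, a difference of 1.38 ± 0.07 (SE).

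Octamer sites, which bind OCT1 and are known for driving histone H2B promoters, were searched in the RefSeq promoter table (GRCh38.p14, 250 bases before to 50 after the first listed start), which held 15384 of the tested genes. The core TTTGCAT, searched on both strands and chosen after the values were seen, was present in 13 of 23 promoters of the called cluster histones (56.5%), in 3 of 14 of the other cluster histones (21.4%) and in 3.55% of all promoters. Among all genes higher with SB590885 the share was 3.16%, and among those higher with PD325901 it was 4.20%. The 250 bases before the start are shown for the 3 cluster histone genes with the largest differences, each read 5′ to 3′ on the gene's strand, to show where the core (capitals) lies. The windows are chr6:27146859-27147108 (minus strand) for H2BC12, chr6:26123922-26124171 (plus strand) for H2AC6 and chr6:26183511-26183760 (plus strand) for H2BC6.
H2BC12: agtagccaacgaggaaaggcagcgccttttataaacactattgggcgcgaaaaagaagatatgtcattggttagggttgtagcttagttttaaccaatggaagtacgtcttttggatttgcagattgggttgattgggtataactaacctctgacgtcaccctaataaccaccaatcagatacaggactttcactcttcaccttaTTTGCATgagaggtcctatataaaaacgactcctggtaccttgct
H2AC6: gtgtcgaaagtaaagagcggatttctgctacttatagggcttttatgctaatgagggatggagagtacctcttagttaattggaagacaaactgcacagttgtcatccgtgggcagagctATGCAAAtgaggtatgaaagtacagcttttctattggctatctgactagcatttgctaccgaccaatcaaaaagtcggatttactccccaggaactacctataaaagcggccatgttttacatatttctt
H2BC6: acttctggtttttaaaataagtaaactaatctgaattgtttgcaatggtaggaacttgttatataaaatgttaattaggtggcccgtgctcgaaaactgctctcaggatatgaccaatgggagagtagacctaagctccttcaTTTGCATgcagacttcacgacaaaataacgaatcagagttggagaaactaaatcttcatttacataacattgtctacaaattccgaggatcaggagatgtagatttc
Counted from the start site, the core began at base -45 in H2BC12, -130 in H2AC6, where it lies on the other strand, and -107 in H2BC6. A match describes letters in these windows and does not show that a factor was bound.

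Genes of the ATF4 and amino acid response had the highest share of members on the SB590885 side among the lists counted. ATF4 is the transcription factor that starvation for amino acids and ER stress induce through translation, and its targets supply amino acids and redox buffers. Of 33 measured genes, 25 were higher with SB590885 than with PD325901 and 1 was lower, a share of 75.8% against 12.4% of all genes, with a median difference of 0.43. Against DMSO, SB590885 raised 23 and lowered 2, whereas PD325901 raised 0 and lowered 5, and 5 genes were opposed. Without the block 9 were higher and 1 lower, and under quantile normalisation the counts stayed at 25 and 1.

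CTH, which makes cysteine from cystathionine, read 11.14, 11.12, 10.23 and 9.77 with SB590885, 9.43, 9.70, 8.90 and 8.70 with PD325901 and 9.52, 9.59, 8.76 and 8.69 with DMSO. With PD325901 the fitted change from DMSO was 0.04 and not called, and SB590885 was higher than PD325901 in all 4 pairs, by 1.39 ± 0.08 (SE; limma adjusted p = 8.39e-08). The R-marked arrays were lower in every group, and the call was lost without the block (limma adjusted p = 0.0545). SESN2, a sensor of leucine that restrains mTORC1, read 9.08, 8.92, 8.88 and 8.56 with SB590885 against 7.72, 8.09, 7.78 and 7.69 with PD325901 and 7.69 to 7.97 with DMSO. It was 1.04 ± 0.07 (SE) higher with SB590885, with or without the block.

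The ATF4 core TGATGCA lay in 2 of 28 promoters of the list (7.14%), those of CHAC1 and PHGDH, against 2.13% of all promoters. With every listed start counted, it lay in 5 of 28 (17.9%) against 2.89% of all. At the first listed start its share was 1.28% among all genes higher with SB590885 and 0.647% among those higher with PD325901.

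ER folding genes went the other way. Of 26 measured genes of ER folding and the unfolded protein response, 18 were lower with SB590885 than with PD325901 and 3 were higher, a share of 69.2% against 5.73% of all genes, with a median difference of -0.33. PD325901 raised 15 and lowered 0 of them, and SB590885 raised 5 and lowered 6. Without the block 5 were lower and 1 higher.

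PDIA3, which forms disulphide bonds in glycoproteins, was opposed. It read 10.99, 11.31, 10.97 and 10.69 with DMSO, 10.85, 11.07, 10.50 and 10.35 with SB590885 and 11.91, 12.01, 11.51 and 11.32 with PD325901. Each PD325901 array lay above all DMSO and SB590885 arrays, and it was 1.00 ± 0.06 (SE) higher with PD325901 than with SB590885 (limma adjusted p = 7.51e-08). CRELD2, an ER chaperone induced by ER stress, read 10.74, 10.87, 10.66 and 10.43 with SB590885 against 11.47, 11.73, 11.31 and 10.97 with PD325901. The SB590885 values overlapped DMSO (10.43 to 11.20), and the rise of 0.59 belonged to PD325901. HSP90B1, the ER form of HSP90, rose by 0.42 with PD325901 and differed by -0.56 ± 0.05 (SE), in all 4 pairs but with overlapping groups.

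ERN1, the gene of the ER stress sensor IRE1, was the exception with a large difference in the opposite sense. It read 10.70, 10.63, 9.94 and 9.91 with SB590885, 8.85, 9.04, 8.48 and 8.81 with PD325901 and 8.80 to 9.16 with DMSO. All SB590885 arrays lay above the others, by 1.50 ± 0.09 (SE, limma adjusted p = 1.63e-07) over PD325901, with 2 of 3 probe sets called. XBP1, whose transcript IRE1 splices, moved in the reverse sense: 12.16, 12.38, 12.26 and 11.92 with SB590885 against 13.03, 13.19, 12.68 and 12.94 with PD325901. These groups did not overlap (difference -0.78 ± 0.09, SE), DMSO lay at 12.51 to 13.08, and only SB590885 differed from it. The second XBP1 probe set was not called. The arrays do not separate spliced from unspliced XBP1.

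**Figure D4:**
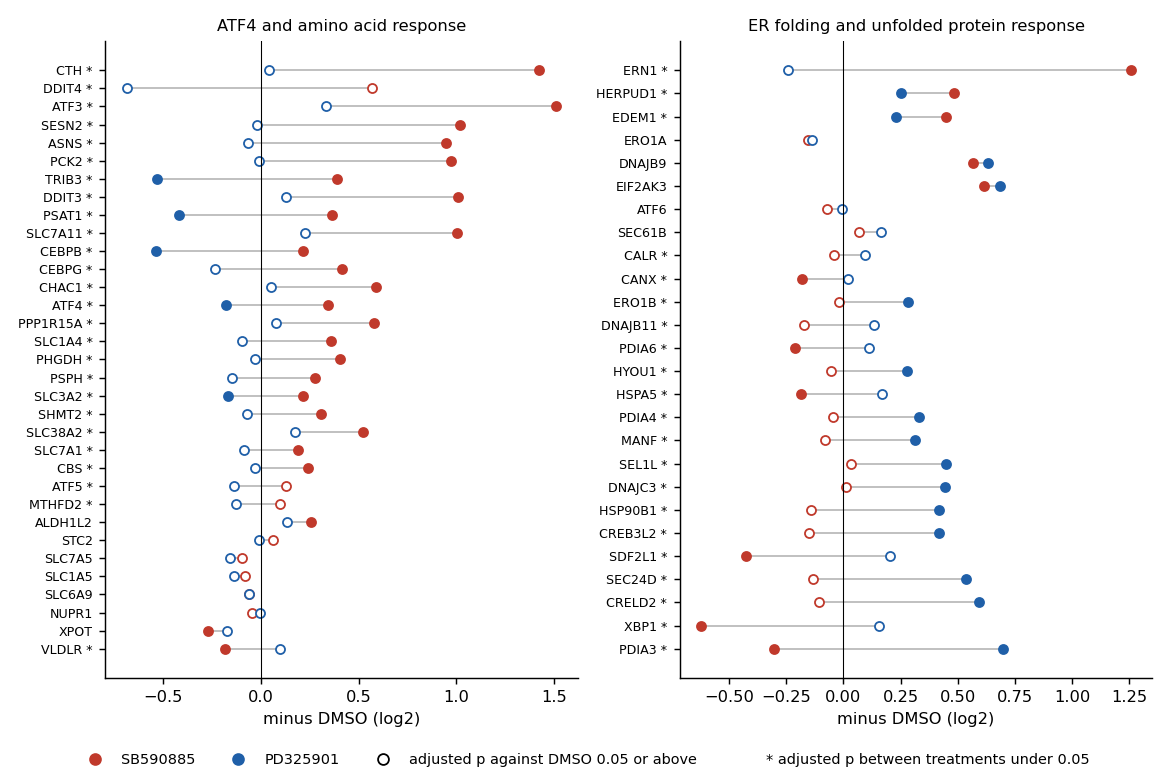
Difference from DMSO (log2) of each measured gene of the 2 lists, SB590885 in red and PD325901 in blue, with open circles where the adjusted p against DMSO was 0.05 or above and an asterisk where the treatments differed; genes are sorted by SB590885 minus PD325901. In the ATF4 list 25 of 33 genes have an asterisk and red to the right, and in the ER list 18 of 26 have an asterisk and blue to the right, with ERN1 at the top as the largest exception.

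The ER stress response element, CCAAT and CCACG with 9 bases between them (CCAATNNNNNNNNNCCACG), is the site through which ATF6 and XBP1 act on chaperone genes. It was chosen after the values were seen, searched on both strands, and found in 16 of 15384 promoters (0.104%). Of these, 9 belonged to genes higher with PD325901 (0.970% of their 928 promoters) and 0 to the 2025 promoters of genes higher with SB590885. Within the ER list it was present in 7 of 16 promoters of the genes lower with SB590885 (43.8%) and in 0 of 8 of the others. The 7 were HSPA5, HSP90B1, CALR, CANX, XBP1, CRELD2 and ERO1B, named for the match. The 250 bases before the start follow for the 3 whose levels are given above, 5′ to 3′ on the gene's strand, with the element in capitals. The windows are chr12:103930160-103930409 (plus strand) for HSP90B1, chr22:49918384-49918633 (plus strand) for CRELD2 and chr22:28800570-28800819 (minus strand) for XBP1.
HSP90B1: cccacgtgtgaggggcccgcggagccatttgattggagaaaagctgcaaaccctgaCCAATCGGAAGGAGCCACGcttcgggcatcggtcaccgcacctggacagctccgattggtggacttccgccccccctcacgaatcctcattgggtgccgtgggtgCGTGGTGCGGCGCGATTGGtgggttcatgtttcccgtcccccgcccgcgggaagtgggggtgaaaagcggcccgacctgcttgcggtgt
CRELD2: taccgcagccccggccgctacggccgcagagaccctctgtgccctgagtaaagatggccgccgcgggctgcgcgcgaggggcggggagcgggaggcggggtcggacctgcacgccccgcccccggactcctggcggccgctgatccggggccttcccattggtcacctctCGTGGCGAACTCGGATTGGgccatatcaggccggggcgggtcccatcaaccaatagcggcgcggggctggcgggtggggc
XBP1: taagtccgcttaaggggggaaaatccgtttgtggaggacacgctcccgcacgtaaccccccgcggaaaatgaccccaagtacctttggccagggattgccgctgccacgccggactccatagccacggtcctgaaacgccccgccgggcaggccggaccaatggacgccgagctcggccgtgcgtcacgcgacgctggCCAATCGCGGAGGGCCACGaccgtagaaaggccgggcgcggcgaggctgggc
HSP90B1 held 2 copies in opposite orientations, CRELD2 1 copy on the other strand, and XBP1 1 copy that began at base -52 from its start. The 4 other motifs searched, each 7 letters on both strands, were AP-1 (TGACTCA), the ETS site (CCGGAAG), the FOXO site (GTAAACA) and the cyclic AMP response site (TGACGTC). Their shares were 2.17%, 19.3%, 3.46% and 6.27% among genes higher with SB590885, 3.34%, 15.7%, 2.37% and 5.82% among genes higher with PD325901, and 3.74%, 14.4%, 2.62% and 4.66% among all genes tested. Matches of different motifs can overlap and were counted separately.

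Plasma cell genes also favoured PD325901. Of 26, 15 were lower with SB590885 (57.7% against 5.73% of all genes) and 1 was higher, with a median difference of -0.28, and without the block 5 were lower and 1 higher. The list shares XBP1 and CREB3L2 with the ER list. SLAMF7, a surface antigen of myeloma cells, read 9.73, 10.07, 10.55 and 9.83 with SB590885 against 11.25, 11.18, 10.84 and 10.95 with PD325901, and 10.65 to 11.13 with DMSO. SB590885 was the low group without overlap (difference -1.01 ± 0.15, SE), least so in array 3. MZB1, a chaperone for immunoglobulin assembly, fell by 0.30 with SB590885 and rose by 0.31 with PD325901. CREB3L2, a transcription factor of secretory cells, rose by 0.42 with PD325901 and was 0.57 lower with SB590885. The 1 member higher with SB590885 was the immunoglobulin light chain gene IGLC1, at 7.55, 8.51, 7.32 and 7.17 with PD325901 against 9.56, 10.02, 9.33 and 9.76 with SB590885 and 9.16 to 10.42 with DMSO. PD325901 was low on all 4 arrays (2.03 ± 0.12, SE), but only 2 of the 9 probe sets of IGLC1 were called, and light chain copies share sequence.

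Heat shock genes and other chaperones of the cytosol were lower with SB590885 in 10 of 21 cases (47.6% against 5.73% of all genes) and higher in 0, and 2 were lower without the block. Against DMSO, SB590885 lowered 14 and PD325901 lowered 8, where 9.84% and 6.18% of all genes were lowered. FKBP4, a cochaperone of HSP90, read 8.96, 8.80, 9.01 and 9.19 with SB590885 against 9.52, 9.51, 9.32 and 9.50 with PD325901 and 9.62 to 9.80 with DMSO. The 3 groups stood in separate ranges (treatment difference -0.47 ± 0.06, SE). CHORDC1, HSPB1 and CACYBP were 0.31 to 0.53 lower with SB590885, each losing its call without the block. Of 35 ribosome biogenesis genes, SB590885 lowered 26 and PD325901 lowered 9, with 6 lower (17.1% against 5.73%) and 1 higher between the treatments. That count depended on the setting: 0 were called without the block, 16 were lower after quantile normalisation, 23 were lower on the unmarked arrays, and on the R-marked arrays 2 were higher and 0 lower.

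DNA replication and G1-S genes were higher with SB590885 in 21 of 34 cases (61.8% against 12.4% of all genes) and lower in 1, with a median difference of 0.17. The separation lay mostly on the PD325901 side: PD325901 lowered 14 and raised 0, and SB590885 raised 4 and lowered 5. The differences were small against the gap between R-marked and unmarked arrays, and without the block 1 member was called. PCNA, the sliding clamp of DNA polymerase, read 13.08, 13.08, 12.56 and 12.61 with SB590885 against 12.80, 12.70, 12.31 and 12.22 with PD325901, higher in all 4 pairs although the groups overlapped (0.33 ± 0.05, SE). RRM2, a subunit of ribonucleotide reductase, was 0.54 higher without overlap. CCNE1, which encodes cyclin E1, fell with both, by 0.53 and 0.90, and further with PD325901. Between the treatments 1 of its 2 probe sets was called.

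Immediate early genes, the first transcribed after a growth signal, were higher with SB590885 in 15 of 32 cases (46.9% against 12.4%) and lower in 1, with 12 raised by SB590885 and 2 raised and 2 lowered by PD325901. Without the block 1 was called. The mRNA-decay factor gene ZFP36L2 fell by 0.55 with PD325901 alone (treatment difference 0.53), and BTG1, an antiproliferative gene, was opposed (0.65). FOXO targets were higher in 12 of 25 cases (48.0% against 12.4%) and lower in 1, and 4 were higher without the block. SB590885 raised 15 of them against DMSO (9.09% of all genes rose). TSC22D3, a FOXO and glucocorticoid target, read 10.51, 10.36, 9.76 and 9.37 with SB590885 against 8.33, 8.54, 8.39 and 8.72 with PD325901, without overlap (1.51 ± 0.17, SE), although 2 of its 3 probe sets were not called. CCNG2, which encodes cyclin G2, was 1.07 higher and BCL6 0.69 higher with SB590885.

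NF-kB subunits and targets were higher with SB590885 in 13 of 26 cases (50.0% against 12.4%) and lower in 1, and without the block in 2 and 0, PD325901 having changed 0 of them against DMSO. NFKBIA, the inhibitor of NF-kB, read 11.51, 11.17, 10.06 and 9.69 with SB590885 against 9.21, 10.13, 8.75 and 8.74 with PD325901. Pairs 1 to 4 all pointed up, the groups overlapped through PD325901 array 2, and the difference of 1.40 ± 0.18 (SE) was not called without the block or in its other probe set. RELB, a subunit, was 0.52 higher without overlap. Cholesterol synthesis genes were higher with SB590885 in 9 of 20 cases (45.0% against 12.4%) and lower in 0. The count of higher genes fell to 4 after quantile normalisation and to 1 without the block. IDI1 led them (0.86 ± 0.12, SE), on 2 of its 4 probe sets. It was not called when only probe sets made for a single transcript were used (limma adjusted p = 0.277). Lysosome and autophagy genes were higher in 10 of 27 cases (37.0% against 12.4%, and 1 without the block) and lower in 1. SQSTM1, a receptor for selective autophagy, was among the higher genes (0.87 ± 0.11, SE).

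Genes of interleukin-6 signalling were divided, with 7 of 22 higher (31.8% against 12.4% of all genes) and 5 lower (22.7% against 5.73%) with SB590885. These counts were 2 and 0 without the block. PIM1, a survival kinase gene induced by STAT3, was opposed: 8.74, 8.49, 8.49 and 8.72 with SB590885, 7.92, 7.88, 7.86 and 7.99 with PD325901 and 8.07 to 8.21 with DMSO. The 3 groups did not overlap (treatment difference 0.70 ± 0.05, SE). PIM2 was 0.74 higher with SB590885, which alone raised it, and IL6R, the interleukin-6 receptor, was 0.71 lower with SB590885, which alone lowered it. In the PI3K, AKT and mTOR list 9 of 27 were higher (33.3% against 12.4%) and 3 lower (11.1% against 5.73%), and 1 and 2 without the block. DEPTOR, an inhibitor of mTOR, read 8.82, 8.78, 8.54 and 8.31 with SB590885 against 9.62, 9.25, 9.12 and 9.16 with PD325901. It rose with both, by 0.35 and 1.03. Its second probe set was not called between the treatments (0.02). RICTOR, the mTORC2 subunit, fell by 0.44 with PD325901 alone.

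Of 29 secreted cytokines and chemokines, 4 were higher (13.8%) and 2 lower (6.9%) with SB590885, and 2 and 0 without the block. These shares are near the 12.4% and 5.73% of all genes. CCL2, among them, is a chemokine that draws monocytes. It read 9.07, 9.12, 9.24 and 9.38 with DMSO, 6.71, 6.75, 7.84 and 7.50 with SB590885 and 6.57, 6.57, 6.66 and 6.61 with PD325901. It fell by 2.00 and 2.60, and with PD325901 it lay below the median of all probe sets, 6.92, so its treatment difference of 0.60 ± 0.14 (SE) rests on arrays 3 and 4 of SB590885 and lost its call on the unmarked arrays, without pair 4, without the block and with a trend in the variances. IL16 fell by 0.81 and 1.97 and was 1.16 ± 0.10 (SE) higher with SB590885, on 1 of its 3 probe sets. DKK1, a Wnt antagonist secreted by myeloma cells, fell by 0.38 with SB590885 and rose by 0.41 with PD325901. Of the adhesion genes 5 of 29 were lower (17.2% against 5.73% of all genes) and 2 higher (6.90% against 12.4%) with SB590885. The counts were 3 and 0 without the block. PECAM1 and ITGA6 were opposed, below DMSO with SB590885 (differences between treatments -0.94 and -0.74), ITGA4, the alpha-4 integrin, fell by 0.85 with SB590885 alone, and CD44, the hyaluronan receptor, fell by 0.72 with PD325901 alone.

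Of 17 BCL2 family genes, 4 were higher with SB590885 (23.5% against 12.4% of all genes) and 0 lower, and 0 were called without the block. PMAIP1, which encodes NOXA, fell by 0.47 with PD325901 alone. BCL2L11, which encodes BIM, an ERK-restrained death protein, rose with both, by 0.74 and 0.53, and its treatment difference of 0.21 lost its call in 10 alternatives, while another of its 7 probe sets was called the other way. The death receptor gene TNFRSF10B was opposed (0.29 up and 0.32 down), on 1 of its 4 probe sets. Oxidative phosphorylation genes were called in 0 of 27 cases (0 without the block as well), against 18.1% of all genes. Glycolysis and hypoxia genes went both ways, 4 higher (14.3% against 12.4% of all genes) and 5 lower (17.9% against 5.73%) of 28. ADM, a peptide hormone gene induced by hypoxia, was opposed and 0.86 lower with SB590885, and SLC2A3, a glucose transporter, fell by 0.86 with PD325901 alone.

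**Figure D5:**
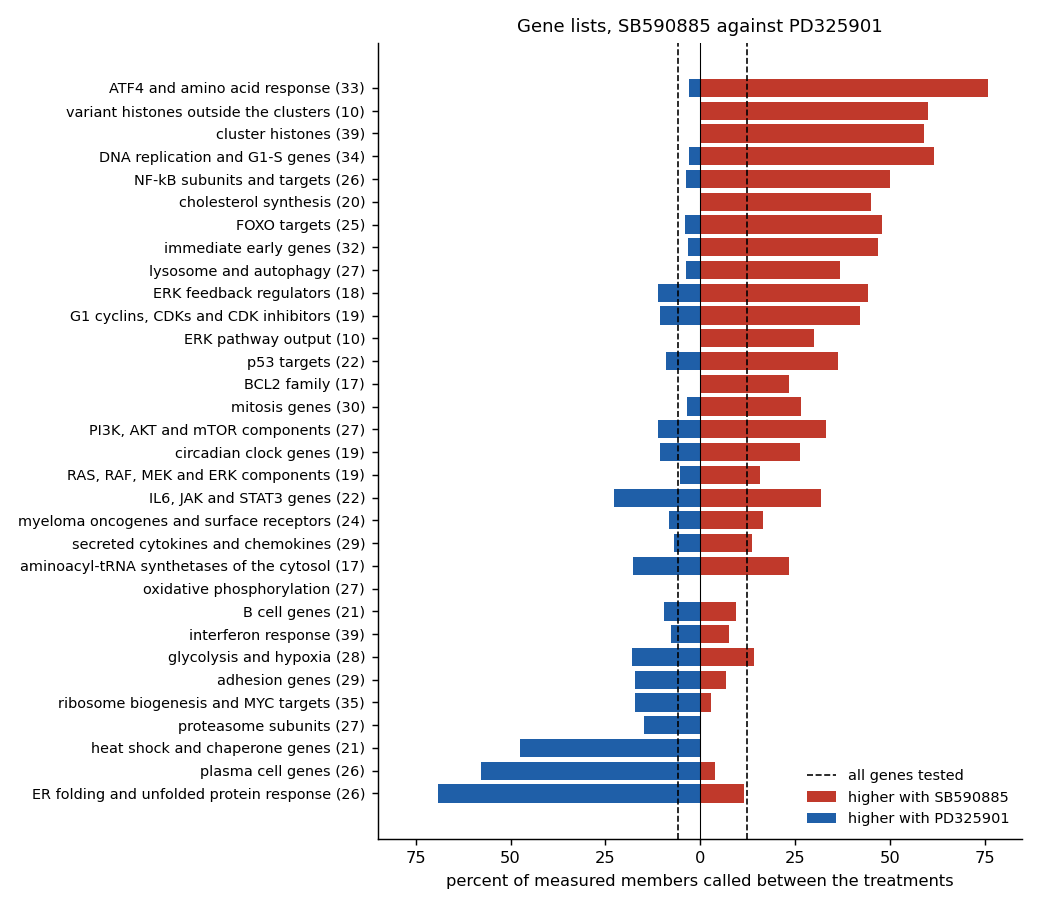
Percent of the measured members of each gene list (number in brackets) that were called higher with SB590885 (red, to the right) or higher with PD325901 (blue, to the left), with dashed lines at the shares over all genes tested, 12.4% and 5.73%. The ATF4 list reaches 75.8% to the right and the ER list 69.2% to the left.

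Interferon response genes need array 2 kept in view. Of 39, 3 were higher and 3 lower with SB590885 (7.69% each, against 12.4% and 5.73% of all genes). The list median of -0.32 became -0.00077 without pair 2, where 9 were higher and 4 lower. SAMD9L read 8.53, 8.90, 8.91 and 8.62 with SB590885 against 9.92, 12.20, 9.70 and 9.65 with PD325901 and 9.72, 12.18, 9.57 and 9.35 with DMSO. SB590885 was lower in every pair, with a difference of -3.30 in pair 2 and -1.40 to -0.79 in the others. The fitted difference was -1.63, and the call was lost without the block (limma adjusted p = 0.283). IFIT2 was high on array 2 of all 3 groups (9.60, 11.04 and 9.50) and was higher with SB590885 in all 4 pairs, by 0.05 in pair 4. PARP9 was 0.80 lower with SB590885, with pair differences of -0.89, -1.66, -0.07 and -0.57. Its array 2 read 11.19 with PD325901 (others 9.86 to 10.21) and 11.25 with DMSO (others 9.88 to 9.99). Its call was lost with the R mark as the block, with a trend in the variances, without pair 1 and without the block.

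Few markers of other cell types were called. Of the defining markers above the array medians, HBB differed by -0.32 and CD8A by -0.30, both lower with SB590885. Monocyte and fibroblast markers were called in 0 of 11 and 0 of 12 cases, erythroid markers were 2 lower of 8, endothelial markers 1 lower of 12, and T and NK cell markers 4 lower of 19 (21.1% against 5.73% of all genes), with 0 higher in any of these lists. The 4 included TRAT1, a T cell receptor adaptor that INA-6 read at 7.70 to 8.46 with DMSO and that was 1.02 lower with SB590885, and CD8B, which was opposed. CD8B was called between the treatments on 1 of its 4 probe sets, and not when only probe sets made for a single transcript were used. The median level of the T and NK list was 6.86 to 7.06 with SB590885 and 6.93 to 7.16 with PD325901, lower with SB590885 in all 4 pairs, and the part of these markers in the results was not tested. RNA quality, read as the 3' minus 5' difference of GAPDH, differed within pairs by -0.07 to 0.10 between the treatments, positive in pairs 1 and 2 and negative in pairs 3 and 4. Its group mean was 0.371 with DMSO, 0.44 with SB590885 and 0.426 with PD325901. SB590885 lay above DMSO in all 4 pairs, and PD325901 in pairs 1, 3 and 4. The part of RNA quality in the results was not tested.

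The difference between the treatments was itself compared between unmarked and R-marked arrays. This test had no replicate block. Of 19775 genes, 1 (0.00506%) differed at an adjusted p under 0.05, and 2358 at an unadjusted p under 0.05. The unadjusted count is a larger share than that threshold would give if no gene differed. The single call therefore does not show that the treatment difference was the same in both sets. That gene was H2BC11, which was 2.20 higher with SB590885 on the unmarked arrays and 1.11 higher on the R-marked arrays (limma adjusted p of the difference = 0.0290). All 3582 called genes had the same sign in both sets of arrays. They were selected on these same arrays together, which favours such agreement, so it is not a separate replication.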

How the data were processed

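The deposited log2 values, 1 per probe set, were made by the authors with RMA in R 3.0.1 per the submitters' processing notes. The sources used here do not say whether all 12 arrays were normalised together, no centring was added, and the number of arrays limits the precision. The array's 54675 probe sets include 62 controls, which were dropped, and 41091 had 1 gene symbol in the annotation, giving 19775 genes at 1 probe set each (highest mean). Genes without such a probe set were not analysed here.

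limma 3.58.1 in R 4.3.3 fitted group means and the replicate number as a fixed block over all 12 arrays, moderated the variances by empirical Bayes (no trend) and adjusted p-values over all genes by Benjamini-Hochberg. Same-numbered arrays of different groups deviated together (12 correlations of 0.544 to 0.913), and each of the 12 arrays correlated best with an array of its own number. Within a set of 1 R mark the pairing of SB590885 with PD325901 was weak: replicate differences correlated at 0.186 and 0.100 over all genes. The rule named the 15 largest differences in each direction with groups apart and the higher mean at or above 6.92, the 10 largest opposed in each direction, the 4 lowest-p called members of each list, the ERK output list and the kinases. The comparison, the lists and the rule were chosen with earlier results of these data known. Data of this design were simulated from the fitted block effects with independent normal noise, so the block held by construction. On them the fit recovered 94 of 100 genes changed by 0.5 and 100 of 100 changed by 1 between the treatments. The fit made 14 false calls among 19575 unchanged genes. That count cannot speak to the weak pairing within an R mark, which the simulation did not contain. Of genes made opposed, with these differences split evenly around DMSO, it recovered 24 of 50 as opposed at 0.5 and 46 of 50 at 1. Alternatives covered the block, scaling, probe set choice, filters and left-out arrays.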

Additional observations from a re-analysis of the deposited data

Results flagged for a closer look

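Among the named genes' groups of 4 arrays, 399 in all, 10 held an array that stood far from the other 3, where chance alone gives about 1 in 20. Array 2 accounts for 6 of them. SAMD9L read 12.18 on DMSO array 2 (others 9.35 to 9.72) and 12.20 on PD325901 array 2 (others 9.65 to 9.92). IFIT2 read 9.60 on DMSO array 2 and 9.50 on PD325901 array 2 (others 6.57 to 6.95 in both groups). PARP9 read 11.25 on DMSO array 2 (others 9.88 to 9.99). These 3 are interferon response genes. ARAF was highest on PD325901 array 2 at 8.64 (others 8.50 to 8.51). FKBP4 and MAP2K2 were lowest on PD325901 array 3, at 9.32 (others 9.50 to 9.52) and 9.24 (others 9.32 to 9.33). IL16 was lowest on SB590885 array 1 at 7.95 (others 8.45 to 8.55), and RELB on DMSO array 1 at 7.09 (others 7.37 to 7.40). The cause of none of these was tested.

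The difference between the treatments in H2BC11 changed with the R mark, by -1.09 from the unmarked to the R-marked arrays (limma adjusted p = 0.0290).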

How the results depend on the processing

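The direction of the SB590885 to PD325901 difference held in the alternatives run for each named gene that was called, except on probe sets made for a single transcript, where a different probe set stands for the gene: TSC22D3 gave -0.012, CACYBP 0.025, POLR1B 0.037 and H2AJ -0.014. Of 122 named genes that were called, 60 lost their call without the replicate block, and 30 lost it in some other alternative. Without the replicate block the calls were 558 between the treatments, 649 for SB590885 against DMSO, 117 for PD325901 against DMSO and 2 opposed. R-marked arrays alone gave 1718 for SB590885 against DMSO and 60 opposed, and unmarked arrays alone 584 for PD325901 against DMSO and 70 opposed. Leaving out 1 array or pair gave 2741 to 3484 between the treatments, 2457 (without pair 1) to 3797 for SB590885 against DMSO, 765 (without pair 4) to 1991 for PD325901 against DMSO, and 61 to 145 opposed. All probe sets gave 7036, 7311 and 2625 calls, an adjusted p under 0.01 gave 2242, 2304, 704 and 42 opposed, and a difference of at least 1 gave 48, 39, 26 and 0. The test of the R mark called 2 genes after centring and 23 over all probe sets, alternatives added after seeing the data. The causes were not tested. Signals near the array floor of 5.85 to 6.01 limit fold changes of weak genes.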
